A study of Mus musculus with 8 samples.

Results

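The BCL2 family is the set of proteins that decide whether the outer mitochondrial membrane stays closed or opens during apoptosis. Its 10 members described here were chosen by gene symbol and matched to the Ensembl identifiers of the deposited tables. All 10 were found among 55487 identifiers, and all 10 were among the 16266 genes that passed the filter on low counts. RNA sequencing was done on islets picked by hand from the pancreas of C57BL/6J mice. The 3 Ide-/- samples came from mice without a working gene for insulin-degrading enzyme, a protease that cleaves insulin, and the 5 Ide+/+ samples from mice with that gene intact. Mice of both groups carried no other named allele and ate a diet with 60 kcal% fat for 2 weeks from 10 weeks of age, and the labels give all of them as female. Neither the cells in which Ide was lost nor the number of animals behind a sample is stated in the labels, which call the samples biological replicates. The p-values therefore measure the spread between these samples. The comparison asked how the loss of IDE alters islet transcripts under the high-fat diet.

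The family has 3 functional classes. The anti-apoptotic proteins BCL2, BCL-XL (Bcl2l1) and MCL1 hold the pro-apoptotic ones in check at the mitochondrial membrane. The effectors BAX and BAK (Bak1) form the pores through which cytochrome c leaves the mitochondrion, after which caspases are activated. The BH3-only proteins BIM (Bcl2l11), PUMA (Bbc3), NOXA (Pmaip1), BID and BAD sense stress and either bind the anti-apoptotic proteins or activate the effectors directly. In beta cells the family is known as a point where the unfolded protein response, inflammatory cytokines and glucose load meet. Much of its control is by phosphorylation, cleavage, binding and protein turnover, which transcript levels do not measure.

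The members bind one another through the BH3 domain, a short helix whose core begins with a conserved leucine and ends with a conserved aspartate. The coding bases of that core are shown because it is the stretch the 3 classes share. Each line is 1 member on the coding strand, 5′ to 3′, with the 18 bases of the core in capitals and 9 bases on each side.
Bcl2: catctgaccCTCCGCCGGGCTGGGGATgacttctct
Bcl2l1: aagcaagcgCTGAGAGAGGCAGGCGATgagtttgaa
Mcl1: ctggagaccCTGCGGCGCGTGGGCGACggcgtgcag
Bax: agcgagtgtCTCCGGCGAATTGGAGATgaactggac
Bak1: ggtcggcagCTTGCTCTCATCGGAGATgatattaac
Bcl2l11: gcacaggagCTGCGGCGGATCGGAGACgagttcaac
Bbc3: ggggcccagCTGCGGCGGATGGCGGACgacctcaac
Bid: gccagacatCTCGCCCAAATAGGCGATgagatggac
Bad: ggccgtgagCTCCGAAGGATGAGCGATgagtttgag
The core was searched in the reading frame of the longest coding transcript of each gene in GENCODE M21, on the coding strand. The pattern was a leucine codon, 2 codons of any kind, a codon for alanine, isoleucine, methionine or valine, a codon for glycine, alanine or serine, and an aspartate codon. Each of the 9 members shown held it 1 time. The same pattern was found in 1951 of 21738 coding genes (8.98%), so a match alone does not mark a BH3 domain. No sequence is shown for Pmaip1.

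Each of these stretches lay within 1 coding exon on the mouse build GRCm38. Among the anti-apoptotic genes the Bcl2 stretch was in exon 1 at chr1:106712575-106712610 (minus strand), the Bcl2l1 stretch in exon 2 at chr2:152829697-152829732 (minus strand) and the Mcl1 stretch in exon 1 at chr3:95659427-95659462 (plus strand). Of the effectors, Bax had it in exon 3 at chr7:45465997-45466032 and Bak1 in exon 4 at chr17:27022531-27022566, both on the minus strand. The BH3-only stretches were in exon 3 of Bcl2l11 at chr2:128147141-128147176 (plus strand), exon 3 of Bbc3 at chr7:16313764-16313799 (plus strand), exon 4 of Bid at chr6:120897289-120897324 (minus strand) and exon 3 of Bad at chr19:6950783-6950818 (plus strand). Gene-level counts add all transcripts of a gene, with or without the exon that encodes the core.

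The libraries held 7143415 to 17445935 counts in Ide-/- and 19277269 to 33371642 in Ide+/+. Ide itself had 0.167 to 0.367 CPM in Ide-/- libraries and 19.5 to 39.2 CPM in Ide+/+ libraries. CPM is the count relative to library size after TMM scaling. The TMM factors were 1.53 to 2.06 in Ide-/- and 0.405 to 1.18 in Ide+/+ libraries. CPM is therefore not a plain share of counts, and CPM differences between the groups rest on these factors. Of the 8 libraries, 7 had 1062 to 5447 counts over 4 Y-linked genes, against the female label. Ide+/+ replicate 1 had 0 such counts, and the Ide+/+ group thus held libraries of both kinds. Ide+/+ replicates 2 and 3 were the most alike pair within a group, with a Pearson correlation of log2 CPM of 0.9897. Other pairs had 0.919 to 0.9816. Whether replicates 2 and 3 are independent was not tested, and SDs, p-values and overlaps below count them as separate samples. The share of counts from acinar markers was 1.02% ± 0.372 in Ide-/- (SD, n = 3) and 27.0% ± 6.54 in Ide+/+ (SD, n = 5). The exact two-sided permutation p was 0.0179, the smallest that 56 splits allow, and 0.0403 adjusted over 9 marker lists. Of 24 acinar markers 23 were lower in Ide-/- islets, and their summed level was 2842 to 7983 CPM in Ide-/- libraries and 168300 to 821200 CPM in Ide+/+ libraries. Beta cell markers were abundant in both groups, with summed levels of 83660 to 106200 CPM in Ide-/- and 35340 to 138300 CPM in Ide+/+, and 0 of 10 beta cell markers were called. As a share of counts they took 17.0% ± 4.37 in Ide-/- and 5.50% ± 2.49 in Ide+/+, and delta and PP cell markers 2.41% ± 0.422 in Ide-/- and 0.668% ± 0.456 in Ide+/+. For each of these shares the exact permutation test gave p = 0.0179 (0.0403 adjusted).

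None of the 10 members passed the test between genotypes. The test was edgeR's quasi-likelihood test with Benjamini-Hochberg adjustment over the 16266 genes, and called genes are those whose adjusted p was below 0.05. Of all genes 21.1% were called, 10.4% as higher and 10.6% as lower in Ide-/- islets. At an unadjusted p under 0.05, 3 of 10 members passed (Bcl2l1, Bak1 and Pmaip1), beside 36.1% of all genes. The log2 fold change was negative for 8 members and positive for Bbc3 and Pmaip1, with a median of −0.24 against −0.01 over all genes. Limma-voom called 0 members and 21.4% of all genes (11% higher), and edgeR with the replicate number as a block called 0 members and 7.2% of all genes (2.86% higher). In absolute size the median was 0.46 for the members and 0.47 over all genes. The 95% intervals reached from −1.96 to 2.22, and for 5 members they lay within 1 log2 unit (2-fold) on either side of 0. For the other 5 a 2-fold difference was within the interval. In simulated counts with these group sizes, 20% of 2-fold and 87% of 4-fold changes were called. That run made 113 calls, against 3426 in these data. An adjusted p of 0.05 therefore need not stand for the same unadjusted p in both. The share of such changes that would be called in these data was not tested. In bulk islets a smaller number of cells of a type and less RNA per cell cannot be told apart, and each value below sums over all cells of the sample. The acinar share moved with genotype beside every value below, and its part in them was not tested.

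**Figure D1:**
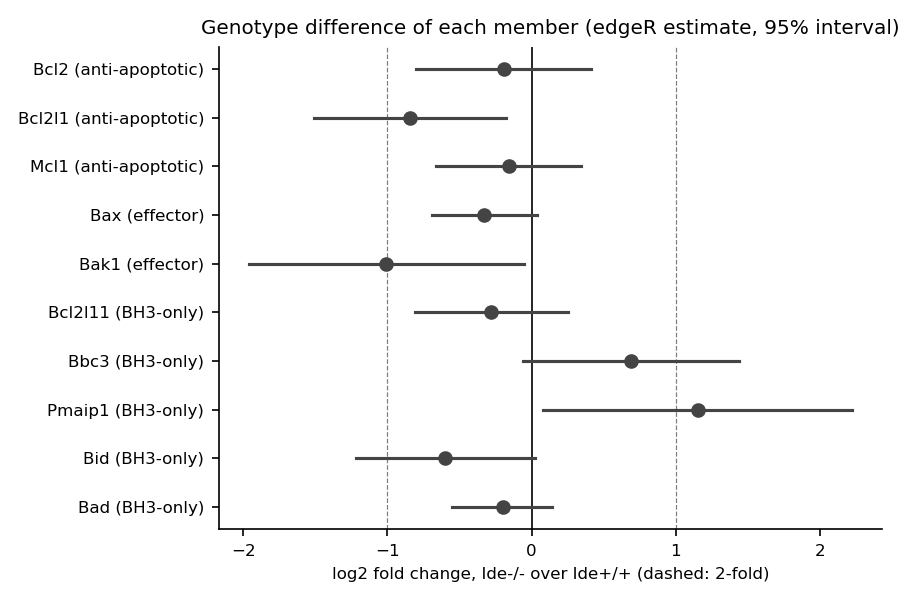
Difference between the genotypes for each of the 10 members, as the edgeR log2 fold change of Ide-/- over Ide+/+ (points) with its 95% interval (lines) and dashed lines at a 2-fold difference. The intervals of Bcl2l1, Bak1 and Pmaip1 do not reach 0, and 0 of 10 members passed the adjusted test, beside 21.1% of all genes.

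Among the 3 anti-apoptotic members all log2 fold changes were negative. Bcl2l1 (ENSMUSG00000007659, chr2:152780668-152831728, minus strand), which encodes BCL-XL, was at 18.7, 10.8 and 7.33 CPM in Ide-/- replicates 1 to 3 and at 19.7, 26.0, 23.7, 27.5 and 13.8 CPM in Ide+/+ replicates 1 to 5. All Ide-/- libraries were below the 4 highest Ide+/+ libraries, and the groups overlapped through Ide-/- replicate 1 and Ide+/+ replicate 5. Means were 12.3 ± 5.80 CPM in Ide-/- and 22.2 ± 5.50 CPM in Ide+/+ (SD, n = 3 and 5), with a log2 fold change of −0.84 (SE 0.31, 95% interval −1.51 to −0.18, adjusted p = 0.0678, edgeR). Bcl2l1 had the smallest p of the 10 members and was the one whose call turned most often. DESeq2 called it at −0.85 (adjusted p = 0.0391). It also passed without Ide-/- replicate 1 at −1.29 (adjusted p = 0.0275) and without Ide+/+ replicate 5 at −0.97 (adjusted p = 0.0404). The share of all genes called was 26.0% by DESeq2, 10.8% without Ide-/- replicate 1 (5.08% higher) and 18.7% without Ide+/+ replicate 5 (8.91% higher). Leaving out Ide-/- replicate 3 gave −0.59 (adjusted p = 0.238). Within the Ide-/- group the Bcl2l1 level followed the order of library depth, with the lowest value in the shallowest library, and the lowest Ide+/+ value was likewise in the shallowest Ide+/+ library. The part of depth in the difference was not tested.

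Bcl2 (ENSMUSG00000057329, chr1:106538178-106714274, minus strand), the family's founding member, was at 4.68, 6.996 and 6.51 CPM in Ide-/- replicates 1 to 3. In Ide+/+ replicates 1 to 5 it was at 3.71, 8.83, 8.53, 5.83 and 7.08 CPM. The Ide-/- values lay inside the Ide+/+ range. Its log2 fold change was −0.19 (SE 0.28, 95% interval −0.80 to 0.41, adjusted p = 0.654). The lowest Bcl2 value, in Ide+/+ replicate 1, rested on 37 counts.

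Mcl1 (ENSMUSG00000038612, chr3:95658788-95663176, plus strand), whose protein is short-lived and so depends on steady synthesis, was at 17.5, 18.02 and 20.9 CPM in Ide-/- libraries. Ide+/+ replicates 1 to 5 had 17.0, 17.2, 16.6, 23.7 and 30.4 CPM. The 3 Ide-/- values lay within the Ide+/+ range, which was spread by replicates 4 and 5. Mcl1 differed by −0.16 on the log2 scale (SE 0.23, 95% interval −0.66 to 0.34, adjusted p = 0.658), the smallest difference of the 10 members.

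**Figure D2:**
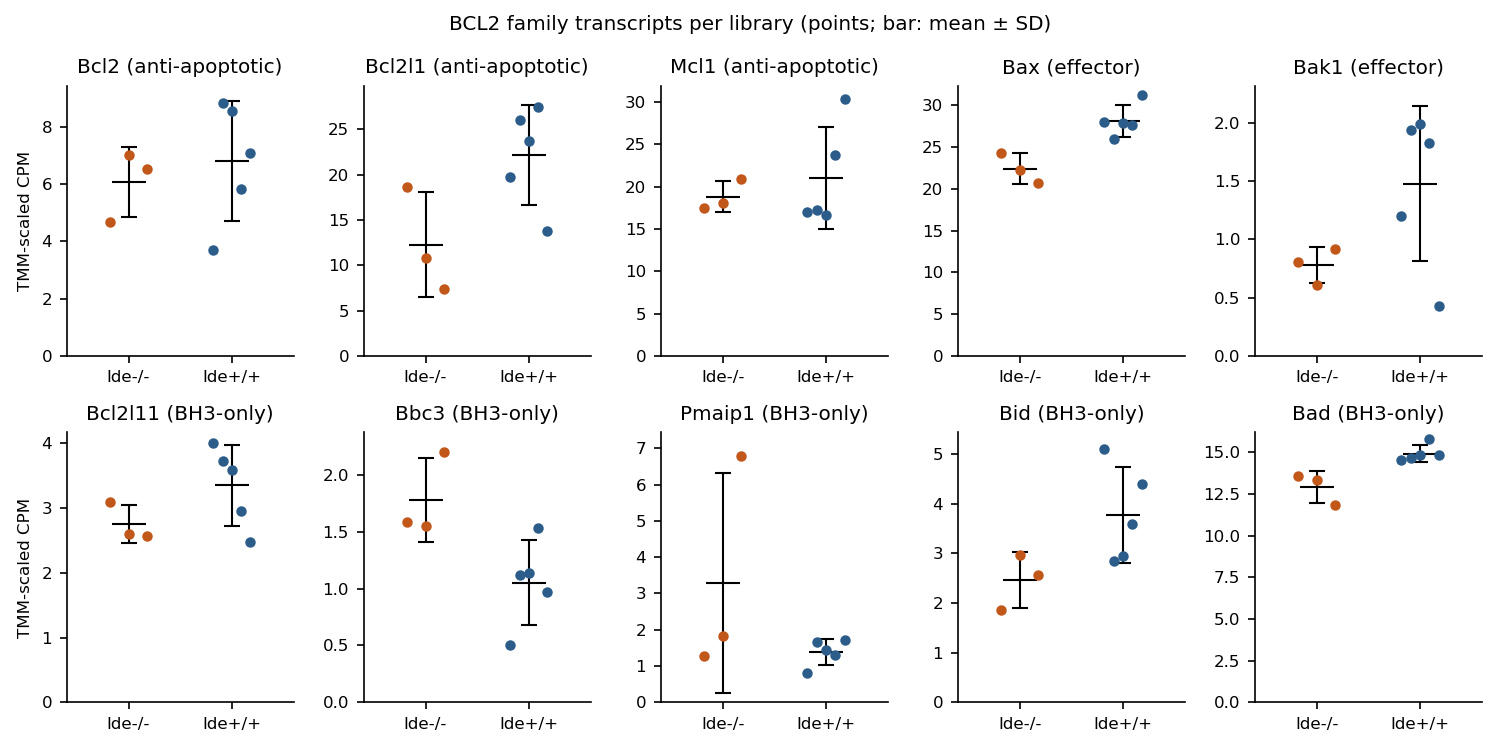
TMM-scaled CPM of the 10 members in each library, with Ide-/- (3 points) left of Ide+/+ (5 points) and bars at the mean ± SD on axes that start at 0. Only Bax and Bad (lower in Ide-/-) and Bbc3 (higher in Ide-/-) have groups that do not overlap, beside 33.0% of all tested genes. The wide Ide-/- bar of Pmaip1 comes from 1 library at 6.78 CPM.

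The effectors also had negative differences, Bax with a narrow interval and Bak1 with a wide one. Bax (ENSMUSG00000003873, chr7:45461697-45466898, minus strand) was at 24.3, 22.2 and 20.6 CPM in Ide-/- replicates 1 to 3 and at 28.0, 25.9, 27.8, 27.7 and 31.2 CPM in Ide+/+ replicates 1 to 5. Every Ide-/- library was below every Ide+/+ library. Means were 22.4 ± 1.85 CPM in Ide-/- and 28.1 ± 1.92 CPM in Ide+/+ (SD, n = 3 and 5). Its log2 fold change was −0.33 (SE 0.17, 95% interval −0.69 to 0.04), and its adjusted p of 0.181 by edgeR missed the threshold.

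Bak1 (ENSMUSG00000057789, chr17:27019810-27029009, minus strand), the second pore former, had far fewer counts. It was at 0.807, 0.610 and 0.917 CPM in Ide-/- libraries, from 29, 15 and 10 counts. In Ide+/+ replicates 1 to 5 it was at 1.20, 1.94, 1.99, 1.83 and 0.429 CPM, from 12, 76.2, 56, 31 and 4 counts. The Ide-/- values lay below 4 of the 5 Ide+/+ values and above that of Ide+/+ replicate 5. The estimated log2 fold change was −1.01 (SE 0.44, 95% interval −1.96 to −0.05, adjusted p = 0.119). Without Ide+/+ replicate 5, the library with 4 counts, it was −1.21 and passed (adjusted p = 0.0316). Bak1 shares 18.2% of its exon bases with Ggnbp1 on the opposite strand, and Ggnbp1 averaged 5.93 TPM in Ide-/- and 4.00 TPM in Ide+/+, above Bak1 in both groups. The strand setting of the counting is not given in the sources used here, so the Bak1 level is uncertain.

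The BH3-only genes divided in direction, with 3 negative and 2 positive log2 fold changes. Bbc3 (ENSMUSG00000002083, chr7:16308393-16318205, plus strand), which encodes PUMA, a p53 target that binds all the anti-apoptotic proteins, was at 1.59, 1.55 and 2.20 CPM in Ide-/- replicates 1 to 3. In Ide+/+ replicates 1 to 5 it was at 0.501, 1.12, 1.14, 1.53 and 0.966 CPM. All 3 Ide-/- libraries were above all 5 Ide+/+ libraries, the nearest pair being 1.55 and 1.53 CPM. For Bbc3 the log2 fold change was 0.69 (SE 0.35, 95% interval −0.06 to 1.44, adjusted p = 0.171). Its counts were 57, 38 and 24 in Ide-/- and 5 to 44 in Ide+/+.

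Pmaip1 (ENSMUSG00000024521, chromosome 18, plus strand), which encodes NOXA, a partner mainly of MCL1, had the largest estimate and the widest interval of the members. Its level was 1.28, 1.83 and 6.78 CPM in Ide-/- replicates 1 to 3 and 0.802, 1.65, 1.46, 1.296 and 1.72 CPM in Ide+/+ replicates 1 to 5. Only Ide-/- replicates 2 and 3 were above the Ide+/+ range, replicate 2 by a small margin. The fitted log2 fold change was 1.15 (SE 0.49, 95% interval 0.08 to 2.22, adjusted p = 0.113). Without Ide-/- replicate 3, the shallowest library, it was 0.14 (adjusted p = 0.83), and with limma-voom it was 0.54. The estimate thus rests on 1 library. Without 1 library at a time the log2 fold change ran from 0.14 to 1.56.

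Bid (ENSMUSG00000004446, chr6:120891930-120916853, minus strand), which caspase 8 cleaves to link death receptors to mitochondria, was at 1.87, 2.97 and 2.57 CPM in Ide-/- libraries. Ide+/+ replicates 1 to 5 had 5.11, 2.85, 2.95, 3.59 and 4.40 CPM. Ide-/- replicate 2 lay within the Ide+/+ range and the other two below it. The log2 fold change was −0.60 (SE 0.28, 95% interval −1.22 to 0.02, adjusted p = 0.153). Bid shares 17.7% of its exon bases with its family relative Bcl2l13 on the opposite strand.

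Bad (ENSMUSG00000024959, chr19:6941861-6951899, plus strand), whose protein is held inactive by phosphorylation under insulin and growth factor signalling, was at 13.6, 13.3 and 11.8 CPM in Ide-/- libraries. In Ide+/+ replicates 1 to 5 it was at 14.5, 14.6, 14.8, 15.8 and 14.8 CPM. The groups did not overlap, Ide-/- being lower. The difference was small, with means of 12.9 ± 0.955 CPM in Ide-/- and 14.9 ± 0.4999 CPM in Ide+/+ (SD, n = 3 and 5) and a log2 fold change of −0.20 (SE 0.16, 95% interval −0.55 to 0.14, adjusted p = 0.374). Of its exon bases 20.5% are shared with Gpr137 on the opposite strand.

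Bcl2l11 (ENSMUSG00000027381, chr2:128126038-128162547, plus strand), which encodes BIM, an activator of BAX and BAK, was at 3.09, 2.60 and 2.57 CPM in Ide-/- libraries and at 4.01, 3.72, 3.59, 2.94 and 2.47 CPM in Ide+/+ replicates 1 to 5. The groups overlapped. Its log2 fold change was −0.28 (SE 0.24, 95% interval −0.81 to 0.25, adjusted p = 0.431). Over all 10 members, the CPM groups did not overlap for 3 (Bax, Bad and Bbc3). Across all tested genes they did not overlap for 33.0%, with 17.4% higher and 15.6% lower in Ide-/-. Without Ide+/+ replicate 1, the library that differed from the other 7 in its Y-linked counts, 0 members passed, beside 4280 of 16028 genes. The 10 log2 fold changes kept their signs, with Bcl2l1 at −0.88 and Bak1 at −1.10.

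On the TPM scale, which divides by transcript length and allows genes to be compared, Bax stood first in both groups. It averaged 39.2 TPM in Ide-/- and 27.8 TPM in Ide+/+. Bad came second with 19.0 TPM in Ide-/- and 12.1 TPM in Ide+/+. Bcl2l1 followed at 7.55 TPM in Ide-/- and 7.96 TPM in Ide+/+, and then Mcl1 at 7.26 TPM in Ide-/- and 4.42 TPM in Ide+/+. The other 6 members were below 2 TPM on average in both groups. In Ide-/- they ran from 1.503 TPM for Pmaip1 through Bcl2 (1.49), Bid (1.47), Bbc3 (1.37) and Bcl2l11 (1.01) to 0.533 TPM for Bak1. In Ide+/+ they ran from 1.16 TPM for Bid through Bcl2 (1.10), Bcl2l11 (0.734), Bak1 (0.644) and Bbc3 (0.568) to 0.412 TPM for Pmaip1.

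Most neighbours in this order had overlapping ranges across libraries. In Ide-/- the ranges of neighbouring members did not overlap at Bax and Bad, Bad and Bcl2l1, Mcl1 and Pmaip1, and Bcl2l11 and Bak1. In Ide+/+ they did not overlap at Bax and Bad and at Mcl1 and Bid. Compared within each library, Bad was above Bcl2l1 in 5 of 5 Ide+/+ libraries. In 4 of 5, Bcl2l1 was above Mcl1, Bcl2 above Bcl2l11, Bcl2l11 above Bak1, Bak1 above Bbc3 and Bbc3 above Pmaip1. Bid was above Bcl2 in 3 of 5. Neighbours with overlapping ranges in Ide-/- kept their order in 1 or 2 of 3 libraries. Bax alone made up 48.6%, 49.0% and 48.8% of the members' summed TPM in Ide-/- libraries and 53%, 46.4%, 49.4%, 46.3% and 52.6% in Ide+/+ libraries. This effector was thus the most abundant member transcript in each of the 8 libraries, while Bcl2, after which the family is named, was below 2 TPM in all of them.

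**Figure D3:**
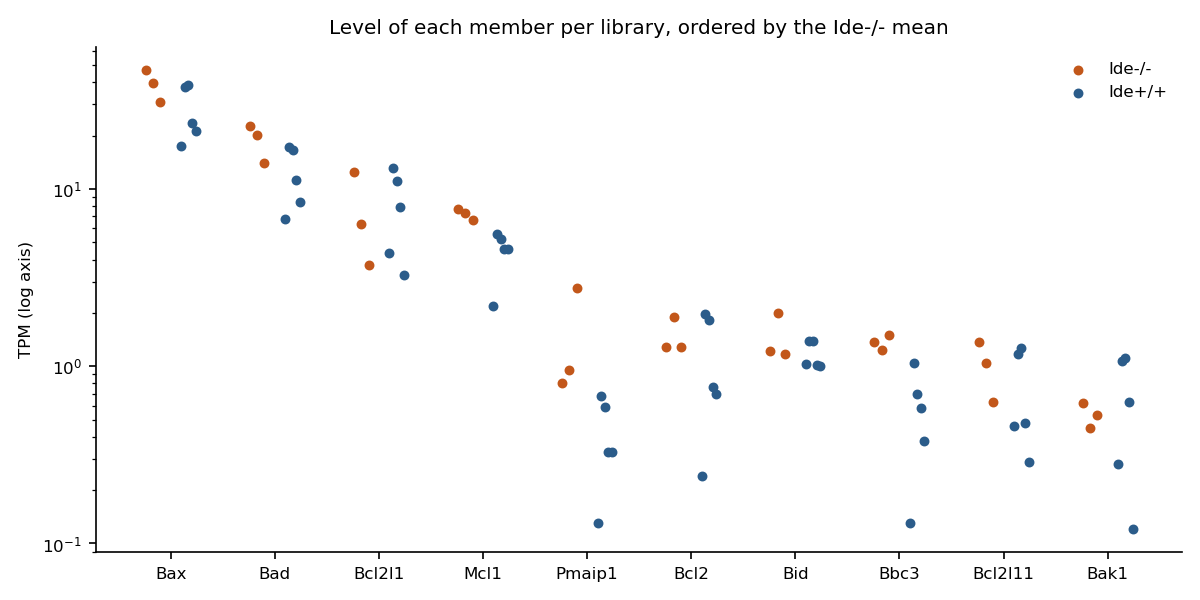
TPM of each member in each library on a log axis, members ordered by their Ide-/- mean, Ide-/- points left of Ide+/+ points. Bax, Bad, Bcl2l1 and Mcl1 form the upper part of the order, and the other 6 members average below 2 TPM.

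TPM and CPM placed the genotypes differently. Mcl1 had 7.70, 7.36 and 6.72 TPM in Ide-/- libraries, all above its 2.19, 5.58, 5.20, 4.56 and 4.56 TPM in Ide+/+ libraries, although its CPM values overlapped. Bad had 22.8, 20.2 and 14.1 TPM in Ide-/- and 6.80, 17.4, 16.6, 11.2 and 8.40 TPM in Ide+/+, so that the direction of its CPM difference was turned round. In all, the TPM groups did not overlap for 3 of 10 members (Mcl1, Bbc3 and Pmaip1), each higher in Ide-/-. Among all tested genes this was so for 42.1%, with 39.3% higher and 2.8% lower. TPM is a share of the whole library, of which acinar markers took 1.02% of counts in Ide-/- and 27.0% in Ide+/+, and their part in the TPM differences was not tested. With log2(TPM + 1) tested by limma, the median log2 fold change of all genes was 0.50, and Bbc3 (0.62, adjusted p = 0.0269) and Pmaip1 (0.76, adjusted p = 0.0162) passed, beside 39.3% of all genes called, 36.8% as higher. Relative to that median Bbc3 was at 0.12 and Pmaip1 at 0.26, and the other 8 members ran from −0.56 to 0.17. With a pseudocount of 0.1 in place of 1 the median was 0.83, and Pmaip1 passed (1.57, adjusted p = 0.0356) beside 31.7% of genes called, 29.3% as higher.

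**Figure D4:**
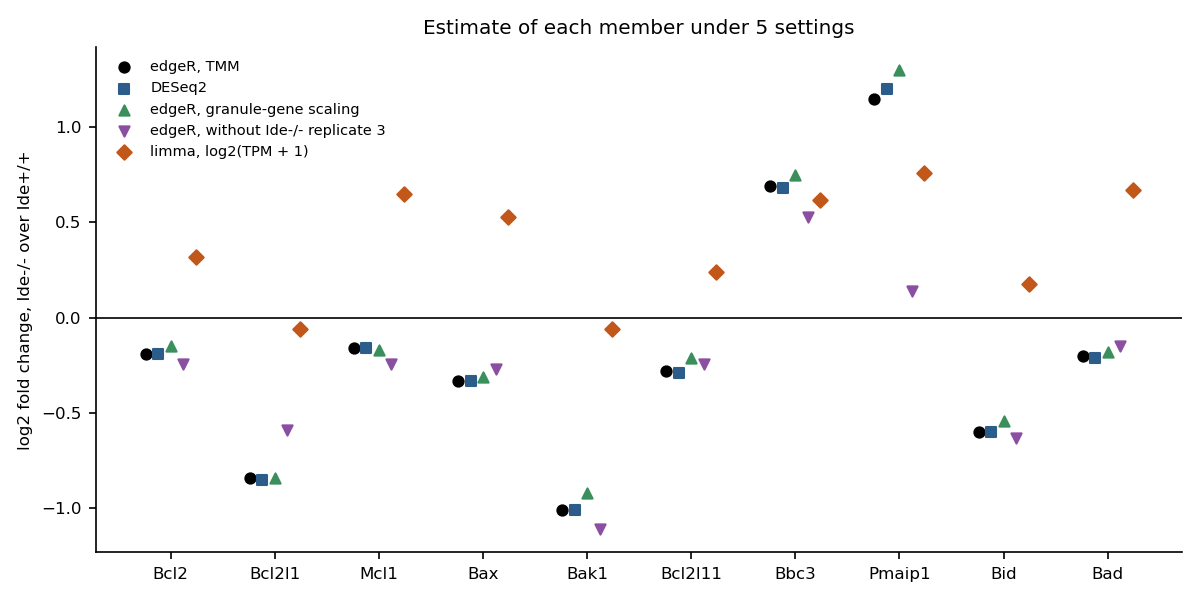
The log2 fold change of Ide-/- over Ide+/+ for each member under 5 of the settings, 1 symbol each. The edgeR, DESeq2 and granule-gene estimates lie close together, the log2(TPM + 1) estimates of 8 members lie above them, and Pmaip1 falls to 0.14 without Ide-/- replicate 3.

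The balance of pro- and anti-apoptotic transcripts was read as ratios of TPM within a library, which need no scaling between libraries. They cover only the 10 members, leave out the anti-apoptotic gene Bcl2l2 described below, and are given without a test. Bax over Bcl2, the ratio in most common use, was 36.4, 21.0 and 23.9 in Ide-/- libraries and 73.2, 19.2, 21.4, 31.1 and 30.2 in the Ide+/+ ones. The groups overlapped, and the highest value came from Ide+/+ replicate 1, where Bcl2 had 0.24 TPM. The difference of mean log2 ratios was −0.23, and 0.08 without that library. Bax and Bak1 over the 3 anti-apoptotic genes gave 2.21, 2.58 and 2.67 in Ide-/- and 2.63, 1.86, 2.21, 1.83 and 2.49 in Ide+/+. Means of this ratio were 2.49 ± 0.246 in Ide-/- and 2.21 ± 0.361 in Ide+/+ (SD, n = 3 and 5), with overlapping groups.

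All 7 pro-apoptotic genes over the 3 anti-apoptotic ones gave 3.49, 4.21 and 4.39 in Ide-/- and 3.89, 2.91, 3.34, 2.86 and 3.71 in Ide+/+. Ide-/- replicates 2 and 3 were above the Ide+/+ range and replicate 1 was inside it. Means were 4.03 ± 0.477 in Ide-/- and 3.34 ± 0.464 in Ide+/+. A split by partner was not among the planned ratios and was added to them. Bax over Bcl2l1, the member with the smallest p, was 3.74, 6.28 and 8.27 in Ide-/- against 4.04, 2.85, 3.50, 2.99 and 6.47 in Ide+/+. Bax over Mcl1 was 6.10, 5.41 and 4.59 in Ide-/- against 8.02, 6.73, 7.48, 5.18 and 4.64 in Ide+/+. The mean ratio was thus higher in Ide-/- against Bcl2l1 (6.09 and 3.97) and lower against Mcl1 (5.37 and 6.41), with overlapping groups in both.

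The ratio of the 5 BH3-only genes to the 3 anti-apoptotic ones was added after the values had been seen. It was 1.28, 1.63 and 1.72 in Ide-/- libraries and 1.26, 1.05, 1.13, 1.03 and 1.22 in the Ide+/+ ones. The groups did not overlap, by the margin between 1.28 and 1.26. Computed on expected counts the same ratio took values of 0.525, 0.623 and 0.745 in Ide-/- against 0.615, 0.461, 0.490, 0.441 and 0.474 in Ide+/+, and the groups overlapped. With Bad left out it was 0.221, 0.334 and 0.518 in Ide-/- against 0.258, 0.207, 0.217, 0.182 and 0.234 in Ide+/+, again with overlap. The summed anti-apoptotic TPM was 21.6, 15.6 and 11.7 in Ide-/- against 6.78, 20.7, 18.1, 13.2 and 8.53 in Ide+/+.

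**Figure D5:**
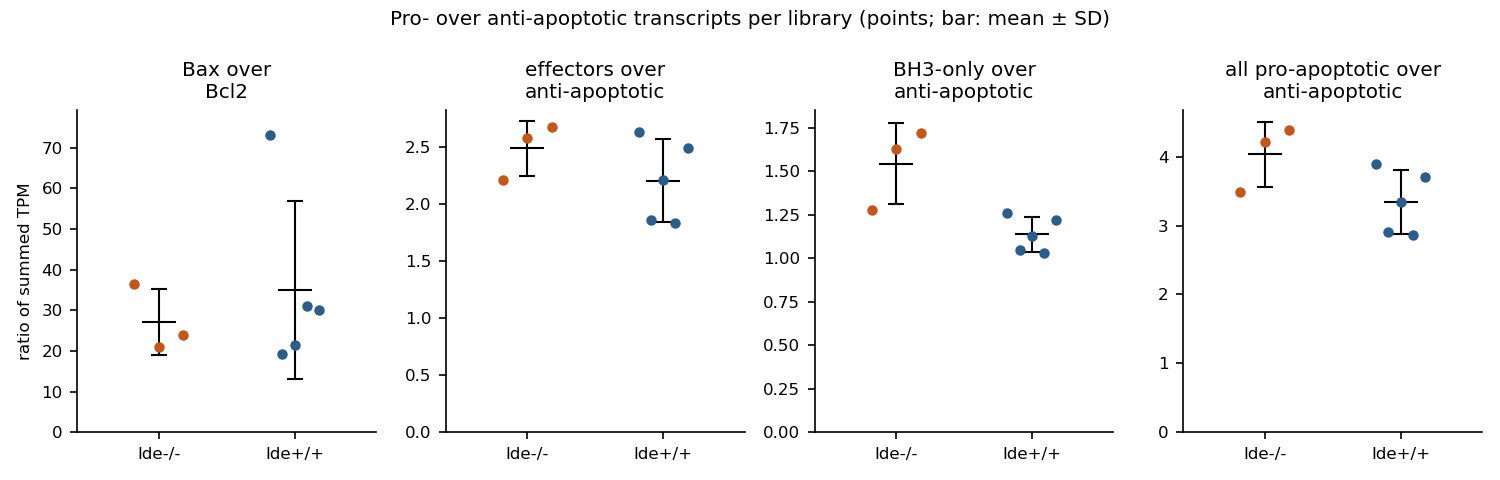
Ratios of summed TPM of pro- over anti-apoptotic genes in each library, Ide-/- (3 points) left of Ide+/+ (5 points), with bars at the mean ± SD and axes from 0. Groups overlap in 3 of the 4 ratios, and the BH3-only groups are apart by the margin between 1.28 and 1.26.

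Gene-level counts do not separate the splice forms of these genes, some of which have opposite roles, such as the long and short forms of BCL-X. The annotation lists 9 transcripts of Bcl2l1, 8 of Bcl2l11 and 6 of Bax. The deposited length column, the mean transcript length weighted by the abundance of each form, moves where the mix of forms moves. For Bcl2l1 it was 2283, 2412 and 2209 bases in Ide-/- and 2051 to 2331 bases in Ide+/+, with overlap. Bax had 882, 883 and 838 bases in Ide-/- and 807 to 874 bases in Ide+/+, also with overlap. For Bcl2l11 it was 3398, 3477 and 4452 bases in Ide-/- and 3063 to 4375 bases in Ide+/+. Bcl2 had 5061 to 5507 bases in Ide-/- and 4926 to 6797 bases in Ide+/+, the highest in replicate 1. Mcl1 had 3418 bases in every library.

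Genes with the most similar profile over the 8 libraries were sought for Bcl2l1 and for Bax among 13265 genes, by the root mean square difference of centred log2 CPM. Nearest to Bcl2l1 were Nr1h2 (0.0976), Nucb1 (0.147) and Mlf2 (0.165), where the median gene differed by 0.733 and Bcl2l1 itself deviated by 0.623 from its own mean. Of these, Mlf2 was called lower in Ide-/- (log2 fold change −0.89, adjusted p = 0.045), and Nr1h2 (−0.74) and Nucb1 (−0.84) were not called. Nearest to Bax were Kpnb1 (0.0603), Polr2f (0.0616) and Rcor1 (0.0666), with a median gene at 0.442. Bax itself deviated by 0.183 from its own mean, and none of its 3 neighbours was called.

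The remaining family genes held 2 called ones, 1 of them uncertain. Of 15 listed, 9 were tested, and 0 were higher and 2 lower in Ide-/- islets (22.2%, beside 21.1% of all genes). Bok, a BAX-like effector that is controlled by protein degradation, was at 2.09, 1.95 and 2.11 CPM in Ide-/- libraries and at 7.62, 5.09, 4.55, 8.66 and 6.33 CPM in Ide+/+ libraries. It fell by 1.64 on the log2 scale (SE 0.27, adjusted p = 0.00222), and was called in each of the 8 tests that left out 1 library. On the TPM scale it was not called (−0.63, adjusted p = 0.0855, with log2(TPM + 1)). Bcl2a1b, an anti-apoptotic gene of blood cells named here after its values were seen, was the other called gene (−2.64, adjusted p = 0.0128). It belongs to a cluster of near-identical copies among which reads are divided, so its level is uncertain, and without Ide-/- replicate 1 or 2 only 1 gene of the list was called. Macrophage markers moved with it in CPM, with 8 of 9 tested markers lower and summed levels of 91.3 to 168 CPM in Ide-/- and 371 to 700 CPM in Ide+/+. Their share of counts overlapped, at 0.0186% to 0.0257% in Ide-/- and 0.0151% to 0.0529% in Ide+/+ (exact permutation p = 0.214). The part of macrophages in the result was not tested. Bnip3, a mitophagy receptor, was at 39.1 ± 5.68 CPM in Ide-/- and 59.6 ± 36.4 CPM in Ide+/+ (adjusted p = 0.279). Bcl2l2, a further anti-apoptotic gene, had a positive log2 fold change of 0.52 and was not called (adjusted p = 0.0664). It was at 14.6 to 20.4 CPM in Ide-/- and 10.0 to 14.3 CPM in Ide+/+. Its mean was 6.35 TPM in Ide-/- and 2.60 TPM in Ide+/+, and the ratios above leave it out. By library it had 6.40, 6.27 and 6.38 TPM in Ide-/- and 1.33, 3.87, 3.28, 2.80 and 1.72 TPM in Ide+/+. Counted in the anti-apoptotic sum, Bcl2l2 would lower each ratio to that sum, by a larger factor in every Ide-/- library than in any Ide+/+ library. The higher mean ratios to that sum in Ide-/- therefore hold for the 10 members only.

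Downstream of the mitochondrion, 4 of the 20 caspase and inhibitor genes were called (20%, beside 21.1% of all genes). Of these, 2 were higher and 2 lower in Ide-/- islets. Birc2, the ubiquitin ligase cIAP1, rose to 44.2, 40.7 and 58.8 CPM in Ide-/- libraries, against 27.6, 23.98, 24.3, 22.9 and 23.3 CPM in Ide+/+ libraries. The groups were far apart. Birc2 differed by 0.97 on the log2 scale (SE 0.18, adjusted p = 0.00438), and the gene was called in each test that left out 1 library. In the edgeR fit with the replicate number as a block Birc2 was not called (0.91, adjusted p = 0.0705). The related gene Birc3 was at −0.63 and not called (adjusted p = 0.0503). Dffb, the nuclease that cuts DNA in apoptotic nuclei, rose to 7.30 ± 0.757 CPM in Ide-/-, against 2.96 ± 1.10 CPM in Ide+/+ (log2 fold change 1.26, SE 0.30, adjusted p = 0.0136). Its call was lost without Ide-/- replicate 2 (1.22, adjusted p = 0.0604) or 3 (1.21, adjusted p = 0.0583). Vdac1, a pore of the outer membrane, fell by 0.69 (adjusted p = 0.0471). Leaving out any of 6 libraries ended that call (adjusted p up to 0.158), and on the TPM scale the sign turned. The genes of cytochrome c and of its binding partner APAF1 were not called, with Cycs at −0.05 (adjusted p = 0.91) and Apaf1 at 0.42 (adjusted p = 0.417).

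Casp9, the initiator caspase of this pathway, had the largest difference of the list and is uncertain. It was at 3.87, 6.02 and 7.24 CPM in Ide-/- libraries and at 235, 43.2, 48.0, 173 and 231 CPM in Ide+/+ libraries (log2 fold change −4.69, SE 0.67, adjusted p = 0.0011). Casp9 shares 94 exon bases (1.81%) with acinar genes on the opposite strand, Cela2a and Ctrc. Its counts were 0.459%, 0.262% and 0.237% of the Cela2a counts in Ide-/- libraries and 0.0947%, 0.0922%, 0.0924%, 0.112% and 0.0886% in Ide+/+ libraries, a nearly fixed share within Ide+/+. Without strand, reads of these genes cannot be told apart.

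Of the 12 death receptor genes 10 were tested, and 1 was higher and 2 lower (30.0% called, beside 21.1% of all genes). Fas, the receptor of Fas ligand, was at 9.08, 10.98 and 25.5 CPM in Ide-/- libraries and at 4.01, 5.29, 6.26, 7.83 and 11.4 CPM in Ide+/+ libraries. The highest value was in Ide-/- replicate 3, the library in which Pmaip1 was also highest. The log2 fold change of Fas was 1.12 (SE 0.37, adjusted p = 0.0478), and 0.54 without Ide-/- replicate 3 (adjusted p = 0.319). Tradd, the adaptor of the TNF receptor, was at 4.24 ± 0.992 CPM in Ide-/- and 6.83 ± 0.491 CPM in Ide+/+ (log2 fold change −0.67, adjusted p = 0.0402). The receptor gene Tnfrsf1a was at 3.83 ± 0.353 CPM in Ide-/- and 6.06 ± 1.01 CPM in Ide+/+ (−0.66, adjusted p = 0.0463). On the TPM scale both signs turned, with Tradd at 0.21 and 0.16 and Tnfrsf1a at 0.18 and 0.12 for pseudocounts of 0.1 and 1, and with granule-gene scaling 0 genes of this list were called. Leaving out any of 5 libraries (Ide-/- replicates 2 and 3 and Ide+/+ replicates 2, 3 and 4) ended all 3 calls of this list. When Ide-/- replicate 1 was left out only Fas was called, and without Ide+/+ replicate 1 Fas was not (adjusted p = 0.0642).

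Regulators of BCL2 genes, the p53 pathway and stress kinases, had 1 gene higher and 5 lower among 23 tested. This was 26.1% called, beside 21.1% of all genes. Jun, a stress-activated transcription factor that can induce BH3-only genes, fell to 8.91, 7.24 and 4.13 CPM in Ide-/- libraries, against 27.3, 23.8, 22.6, 46.7 and 26.6 CPM in Ide+/+ libraries (log2 fold change −2.09, SE 0.31, adjusted p = 0.00141). Perp, a p53 target and desmosome protein of epithelia, fell to 2.57 ± 0.588 CPM in Ide-/-, against 23.0 ± 14.8 CPM in Ide+/+ (−3.17, adjusted p = 0.00204). Both were called in each test that left out 1 library, and with log2(TPM + 0.1) Jun was not called (−1.20, adjusted p = 0.0515). Duct and acinar markers, both epithelial, also moved with genotype, with 8 of 10 and 23 of 24 lower. The summed levels of duct markers were 290 to 313 CPM in Ide-/- and 1020 to 2735 CPM in Ide+/+. Perp was highest in Ide+/+ replicate 1 (46.7 CPM), where the acinar sum was also highest (821200 CPM). The duct sum was highest in Ide+/+ replicate 5 (2735 CPM). The part of either cell type in the Perp result was not tested. Sesn2, a stress-induced regulator of mTOR signalling, fell by 1.40 (adjusted p = 0.0106), and leaving out Ide-/- replicate 2 or 3 ended the call (adjusted p = 0.0501 and 0.0531). On the TPM scale Sesn2 was not called (−0.50 and −0.35 with pseudocounts of 0.1 and 1, adjusted p = 0.478 and 0.41). The p53 target Ccng1 fell by 1.5 (adjusted p = 0.0212). It was not called when any of the 3 Ide-/- libraries was left out (adjusted p 0.0665 to 0.0948), nor on the TPM scale (−0.43 and −0.39 with pseudocounts of 0.1 and 1, adjusted p = 0.33 and 0.329). Without Ide+/+ replicate 1, its highest library, Ccng1 was at −1.06 and called (adjusted p = 0.00521). The p53 gene itself, Trp53, was not called (−0.21, adjusted p = 0.453), nor were its targets Cdkn1a (−0.05, adjusted p = 0.934) and Mdm2 (0.20, adjusted p = 0.45). Ddit3, which encodes CHOP, the stress factor that can induce Bcl2l11 and Bbc3, was at 0.10 (adjusted p = 0.754).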

How the data were processed

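Reads from hand-picked islets of 3 Ide-/- and 5 Ide+/+ samples were mapped by the authors to GRCm38 with STAR (2.7.1a) and quantified by RSEM (1.3.1), per the submitters' processing notes. Annotation release and strand setting are not given in the sources used here. Per the file headers, the authors deposited, per gene, an expected count (reads divided among genes by a model, not normalized), TPM (length-corrected, a share of the library) and a mean transcript length in bases. Symbols and exon positions came from GENCODE M21 on GRCm38, which named 55141 of the 55487 identifiers. For Ddit3 the identifier with more counts was used.

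Expected counts were rounded to whole numbers and tested with edgeR 4.0.16 in R 4.3.3 (TMM scaling, robust quasi-likelihood fit, filter at a minimum count of 10 and a total of 15, genotype as the only term), with Benjamini-Hochberg adjustment over 16266 genes and calls at 0.05. The SE was derived from the F statistic (log2 fold change over the root of F), and the 95% interval uses the fit's own degrees of freedom. Alternatives were DESeq2 1.42.0, limma-voom and limma 3.58.1 on log2(TPM + 1) and log2(TPM + 0.1), no filter, a replicate block, scaling to secretory granule genes, TMM without acinar, amylase and Reg genes, and leaving out each library. The edgeR steps were tested on simulated counts of 16266 genes, of which 15286 passed the filter. They made 113 calls, 6 on genes simulated without a change and 0 of the wrong sign. Same-numbered samples of the groups deviated with correlations of 0.049, 0.009 and −0.093, and samples with unlike numbers with −0.304 to 0.238. No pairing by number was seen, but so few values cannot exclude one.

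The members and the lists were chosen with earlier results of these data known. All members were named. From each list called genes averaging 1 CPM or more were named, up to 4 by smallest p, filled to 2 by mean CPM, and for the 2 members with the smallest p and the highest TPM the 3 nearest profiles. Bcl2a1b and the list genes given as not called were named after their values were seen. For 1 list gene no result is reported here. Intervals cover counting error and sample spread as fitted, and the number of samples limits the precision.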

Additional observations from a re-analysis of the deposited data

Results flagged for a closer look

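Within the 5 Ide+/+ libraries, 10 of 56 groups of values held 1 library whose gap to its nearest neighbour was more than 0.71 of the whole range, Dixon's 95% critical value for 5 samples. For independent groups chance gives about 1 in 20. The 56 groups are measures on the same 5 libraries, so their number cannot be set against that rate. Ide+/+ replicate 1, the library without Y-linked counts, was the outlying one in 7 of the 10. In that library the mean transcript length was 6797 bases for Bcl2 (4926 to 5082 in the others) and 807.5 bases for Bax (864.3 to 873.6 in the others), and the Bax over Bcl2 ratio of TPM was 73.21 (19.17 to 31.08 in the others). It also stood apart in Bnip3 at 123.0 CPM (35.15 to 56.65), Vdac1 at 41.49 CPM (23.78 to 25.46), Ccng1 at 111.0 CPM (30.89 to 51.65) and the duct marker share at 0.07744% of counts (0.1201% to 0.1368%).

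Ide+/+ replicate 4 stood apart in Bad at 15.78 CPM (14.53 to 14.82 in the others) and in Jun at 46.7 CPM (22.57 to 27.26). Ide+/+ replicate 2 stood apart in the mean transcript length of Bak1, at 2066 bases (1958 to 1966).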

How the results depend on the processing

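Of 160 member values under 16 alternatives, 138 kept their direction and their side of the threshold, 7 passed the threshold and 15 changed sign. Members called numbered 0, with 1 by DESeq2, 1 with log2(TPM + 0.1), 2 with log2(TPM + 1) and 0 to 2 without 1 library. On log2(TPM + 0.1) and log2(TPM + 1) the log2 fold changes were 0.67 and 0.32 for Bcl2, 0.77 and 0.65 for Mcl1, 0.55 and 0.53 for Bax, 0.53 and 0.24 for Bcl2l11, 0.29 and 0.18 for Bid, 0.71 and 0.67 for Bad, 0.43 and 0.42 for Bnip3, 0.37 and 0.34 for Vdac1, 0.21 and 0.16 for Tradd, and 0.18 and 0.12 for Tnfrsf1a, and Bak1 was at 0.04 with the pseudocount 0.1. These 2 settings moved the median of all genes by 0.83 and 0.50, and called 5157 (92.5% higher) and 6399 genes (93.6% higher), against 3426 (49.6% higher) by edgeR. Genome-wide calls were 1772 with granule-gene scaling and 1547 to 4280 without 1 library (4280 without Ide+/+ replicate 1, 2094 without replicate 4, and 1835, 1594 and 1547 without Ide-/- replicate 1, 2 and 3). A replicate block, although no pairing by number was seen, gave 1171 calls (39.7% higher) and put Mcl1 at 0.14. With it the lists had 1 call among other BCL2 genes, 2 among caspase genes, 1 among death receptor genes and 3 among p53 and stress genes. Without 1 library Mcl1 ran from −0.24 to 0.01, the highest without Ide+/+ replicate 5. Other BCL2 genes called were 1 to 2 without 1 library. Caspase genes called, 4 of 20 by edgeR, were 7 with either TPM setting, 2 with granule-gene scaling and 2 to 6 without 1 library. Death receptor genes called, 3 of 10 by edgeR, were 5 by DESeq2, 1 without the filter, 0 with granule-gene scaling and 0 to 3 without 1 library. For p53 and stress genes, 6 of 23 by edgeR, there were 11 with log2(TPM + 1) and 2 to 7 without 1 library. The share of all genes called also moved between settings. It was 21.1% by edgeR, 26.0% by DESeq2, 31.7% with log2(TPM + 0.1) and 39.3% with log2(TPM + 1). The log2 difference of effectors over anti-apoptotic genes, 0.18, was −0.13 as mean log2 CPM, 0.47 without Mcl1 and 0.12 to 0.27 without 1 library. That of all pro-apoptotic genes, 0.27, was 0.56 without Mcl1 and 0.21 to 0.37 without 1 library, that of BH3-only genes, 0.43, was 0.71 without Mcl1 and 0.35 to 0.56, and that of Bax over Bcl2 was −0.46 to 0.08. The cause of these changes was not tested. Bak1, Bbc3 and Pmaip1 had 4 to 76.2 counts a library, which limits the precision of their values.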

Other observations

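Over all cells of the samples, the 10 members together took 0.018%, 0.015% and 0.0126% of counts in Ide-/- libraries and 0.00383%, 0.0122%, 0.0118%, 0.00715% and 0.00518% in the Ide+/+ ones. The stress kinase gene Mapk8, which encodes JNK1, was higher in Ide-/- (0.63, adjusted p = 0.0239), where Jun, the gene of its main substrate, was lower. The p53 target Trp53inp1 was lower (−1.59, adjusted p = 0.0456). It was at 13.1, 14.2 and 15.3 CPM in Ide-/- libraries and 17.5, 21.2, 21.8, 79.2 and 74.9 CPM in Ide+/+ libraries. Replicates 4 and 5 thus stood well above the other Ide+/+ libraries. In TPM the groups overlapped, at 3.16 to 4.05 in Ide-/- and 1.67 to 11.4 in Ide+/+. Mapk8 and Trp53inp1 complete the 6 called genes of the p53 and stress list.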
